A study of Ovis aries with 57 samples.

Results

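The genes described here build the junctions between epithelial cells. They were chosen by name alone: every row of the luminal epithelium, glandular epithelium and conceptus tables named as a claudin (CLDN), a connexin (GJA, GJB or GJC), a desmocollin (DSC), a desmoglein (DSG), a plakophilin (PKP) or a numbered cadherin (CDH, with the endothelial CDH5 left out), together with OCLN, F11R, JUP, DSP, CTNNA1, CTNND1, CGN and MARVELD2. This gave 74 of the 25174 features with a gene ID. By junction, 24 belong to tight junctions, 23 to adherens junctions or the cadherin family, 14 to gap junctions and 13 to desmosomes. No row is named TJP, since the tables list the zonula occludens scaffolds as ZO1, ZO2 and ZO3; these and beta-catenin, listed as CTNNB, are given beside the 74 genes where a comparison involves them.

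Tight junctions seal the space between neighbouring epithelial cells. Claudins form the seal and set which ions pass, occludin and its relative MARVELD2 (tricellulin) join the strands, and cingulin (CGN) and the ZO proteins tie them to actin. Adherens junctions hold cells together through cadherins, which bind alpha-, beta- and p120-catenin (CTNNA1, CTNNB and CTNND1) inside the cell. Desmosomes join the keratin networks of neighbouring cells through desmogleins and desmocollins outside the membrane and plakoglobin (JUP), plakophilins and desmoplakin (DSP) inside it. Gap junctions are channels made of connexins that let small molecules pass from cell to cell. In the ruminant uterus the luminal epithelium is the surface to which the conceptus attaches, and the glands secrete into the lumen.

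RNA-seq was done on pregnant sheep. Luminal epithelium (LE) and glandular epithelium (GE) were cut from frozen uterine sections by laser capture on days 10, 12, 14, 16 and 20 of pregnancy, with 4 libraries for each tissue and day. Whole conceptuses, meaning the embryo with its membranes, were collected on day 12 (5 libraries) and on days 14, 16 and 20 (4 libraries each), for 57 libraries in all. All LE, GE and day 12 conceptus RNA was amplified by single primer isothermal amplification (SPIA), and the RNA of day 14, 16 and 20 conceptuses was depleted of ribosomal RNA instead. Day 12 and the way its RNA was prepared therefore cannot be told apart in the conceptus. There was no cyclic or non-pregnant group, so the comparisons are between days and between tissues. LE and GE of an animal were captured from the same slide, but the labels do not say which LE library goes with which GE library. They also do not say which animal gave each conceptus. No breed or age is given in the sources used here.

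Depth, inferred from the RPKM steps and rounded, was 8020000 to 25950000 mapped reads in LE, 7850000 to 22280000 in GE and 14620000 to 27220000 in the conceptus. Of these, 1930000 to 7570000 (LE) and 1750000 to 6360000 (GE) lay behind the RPKM values, while the conceptus libraries had 10420000 to 20530000 reads assigned to genes. The LE libraries of day 14 stood apart, where 4528 to 5997 genes reached 1 RPKM, while LE libraries of the other days had 6247 to 8741 such genes. The day 14 LE and GE libraries also carry their own number series with the letter B, and this cannot be told apart from day 14. Epithelial markers (6 genes of the list in the file) were present in every group, with summed levels of 45.35 to 365.22 RPKM in LE, 117.39 to 357.47 RPKM in GE and 335.48 to 3435.94 RPKM in the conceptus. LE libraries 21 and 23 of day 20 held 224.52 and 718.95 RPKM of the gland gene GRP, against 2.89 and 0.63 RPKM in the other day 20 LE libraries. The gland list as a whole (6 genes in the file) did not set them apart, with sums of 4194.55, 176.06, 3975.39 and 1327.69 RPKM in libraries 17, 19, 21 and 23. FOXA2, a transcription factor of uterine glands, was listed at 0 in all 4 of them.

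Many of the 74 genes were low in these tissues. At least 1 group mean of 1 RPKM or more was reached by 29 of them in LE, 28 in GE and 43 in the conceptus, while 1 gene was listed at 0 in all libraries. Conceptus RPKM rests on exon reads on day 12 and on all gene reads later, so its count may not compare with the others. The filter on low values, 1 RPKM in at least 4 libraries, left 25 members for tests within LE, 25 within GE and 30 for LE against GE. The conceptus test kept 50. In LE the highest mean on day 10 was that of CDH17, a cadherin of intestinal epithelium, at 37.4 ± 16.1 RPKM (SD, n = 4). On day 14 it was that of CLDN4 at 223 ± 126 RPKM (SD, n = 4). In GE the highest mean on day 10 was that of CLDN10 at 36.1 ± 11.3 RPKM (SD, n = 4), and on day 12 that of CLDN8 at 51.1 ± 14.0 RPKM (SD, n = 4). In the day 14 conceptus CLDN6, a claudin of embryonic epithelia, stood at 174 ± 3.46 RPKM (SD, n = 4).

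How the luminal junction genes moved as the conceptus elongates was asked first. Between days 12 and 14 the tight junction genes CLDN4 and CLDN3 and the catenin CTNND1 rose in LE, while DSG2, OCLN and PKP2 fell. From day 14 to day 16 DSG2 and OCLN rose back. The steps from day 10 to 12 and from day 16 to 20 gave no called member. A gene is called here at an adjusted p under 0.05 (limma on log2(RPKM + 1), Benjamini-Hochberg over all genes tested), and every change is given as the later day minus the earlier on that log2 scale, which understates the change of low genes. The number of cells of a type and the RNA per cell cannot be told apart in such samples.

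From day 10 to day 12 none of the 25 members tested was called by limma, where 0.565% of all genes were. At an unadjusted p under 0.05 there were 3 members and 829 genes, and edgeR on reads recovered from the RPKM values also called 0 members. The alpha-catenin CTNNA1 had 8.42, 11.81, 18.20 and 10.85 RPKM on day 10 and 35.29, 35.51, 23.29 and 30.93 RPKM on day 12. Its groups did not overlap, but its change of 1.31 (SE 0.40) had an adjusted p of 0.176.

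In the step from day 12 to day 14, 6 of 25 members were called in LE, 3 higher and 3 lower, beside 13.1% of all genes tested (3.39% higher and 9.76% lower). CLDN4 had 40.34, 55.85, 21.59 and 5.18 RPKM on day 12. On day 14 it had 218.19, 167.72, 105.77 and 399.50 RPKM. All 4 day 14 libraries were above all day 12 libraries, and the change was 3.06 (SE 0.64, adjusted p = 0.00417). CLDN3, which lies beside CLDN4 in the RefSeq annotation, had 4.58, 4.77, 1.48 and 0.75 RPKM on day 12 and 12.04, 17.39, 4.30 and 67.17 RPKM on day 14. Its groups overlapped in 1 library, and the change was 2.32 (SE 0.66, adjusted p = 0.0253). CTNND1, the p120-catenin that keeps cadherins at the membrane, went from 11.73, 4.93, 3.11 and 7.97 RPKM to 48.86, 17.00, 46.01 and 27.34 RPKM, with no overlap and a change of 2.19 (SE 0.58, adjusted p = 0.017).

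The desmosomal cadherin DSG2 moved the other way. It had 7.74, 6.08, 5.90 and 12.45 RPKM on day 12, then 0.00, 0.83, 0.82 and 0.05 RPKM on day 14, then 5.51, 5.56, 5.53 and 5.76 RPKM on day 16. All 4 day 14 libraries were below 1 RPKM and no day 12 or day 16 library was. DSG2 fell by 2.67 (SE 0.43, adjusted p = 0.000966) and then rose by 2.27 (SE 0.43, adjusted p = 0.00264). Occludin (OCLN) had 37.89, 30.87, 39.25 and 16.67 RPKM on day 12, 22.45, 17.37, 1.36 and 0.24 RPKM on day 14, and 28.76, 29.64, 32.40 and 33.66 RPKM on day 16. Of the day 14 libraries, 2 were at 17.37 RPKM or more and 2 at 1.36 RPKM or less. OCLN fell by 2.36 (adjusted p = 0.0337) and rose by 2.43 (adjusted p = 0.0304). PKP2, which links desmosomal cadherins to desmoplakin, fell from 6.53, 9.49, 10.60 and 6.64 RPKM to 3.72, 0.00, 8.04 and 0.00 RPKM, and this fall of 1.84 had an adjusted p of 0.0363.

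Leaving out 1 library at a time, in 8 fits a step, ended the call of PKP2 in 6, of OCLN in 5 of the first step and 6 of the second, of CLDN3 in 3 and of CTNND1 in 2. CLDN4 and DSG2 were called in all 8 fits of each step in which they were called. With edgeR on recovered reads the first step had 5 higher and 1 lower of 28 members tested. Of all called genes 732 of 1487 were then higher, and the median of all genes was 0.20. The falls of OCLN (adjusted p = 0.209) and PKP2 (adjusted p = 0.576) and the later rise of OCLN (adjusted p = 0.277) were not called by edgeR. TMM scaling also ended the PKP2 fall and the OCLN rise. Both steps share the day 14 libraries, the ones with few detected genes, and the median of all genes tested was -0.34 and then 0.49, beside 0.02 and 0.43 for the members. The stromal markers (10 genes in the file) summed to 258.53 to 484.60 RPKM in LE on day 12, 293.53 to 648.83 RPKM on day 14 and 44.82 to 106.41 RPKM on day 16, with THY1 at 0 in all 4 day 14 libraries. Endothelial markers (9 in the file) summed to 7.84 to 13.06, 18.88 to 68.87 and 8.80 to 12.83 RPKM on these days, with 0 to 4 of them at 0 in a day 14 library. Their part in the changes was not tested.

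From day 14 to day 16, DSG2 and OCLN were the 2 of 25 members called in LE, where 12.4% of all genes were. From day 16 to day 20, 0 members were called by limma and 0 by edgeR on recovered reads, where 0.261% of all genes were, and 4 members and 825 genes had an unadjusted p under 0.05. When day 16 was set against day 12 with the day 14 libraries left out, an alternative chosen after seeing the data, CLDN4 was higher by 2.40 (adjusted p = 0.0265), CLDN7 by 2.04 (adjusted p = 0.0367) and GJB2 by 1.78 (adjusted p = 0.0322). PKP2 was lower by the same comparison, at -1.98 (adjusted p = 0.00413), from 6.53 to 10.60 RPKM on day 12 to 0.69, 1.79, 1.84 and 1.17 RPKM on day 16. DSG2 (-0.40, adjusted p = 0.547) and OCLN (0.07, adjusted p = 0.953) were not called between days 12 and 16.

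**Figure D1:**
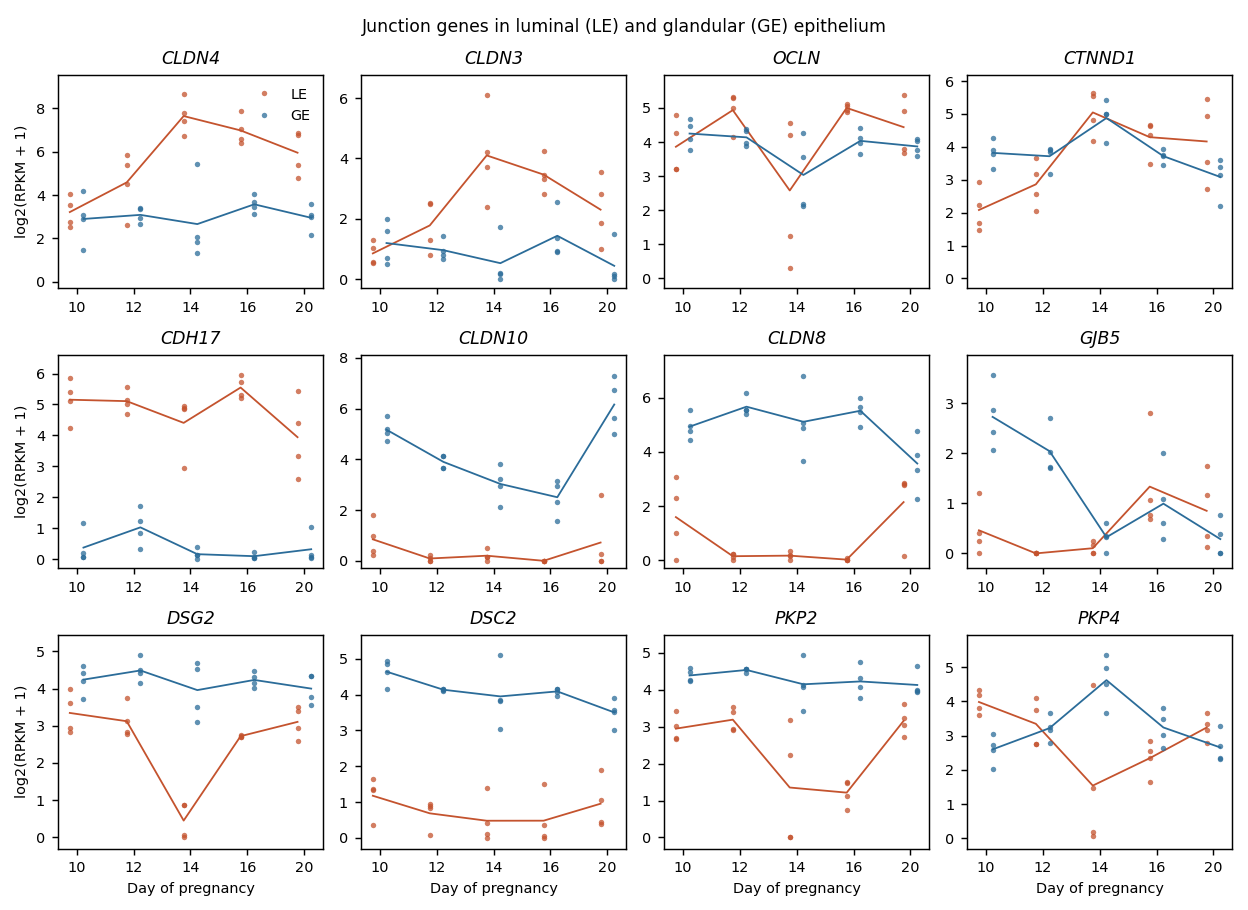
Levels of 12 junction genes in LE (orange) and GE (blue) on days 10 to 20 of pregnancy, as log2(RPKM + 1). Each point is a library and each line joins the means of 4 libraries. CLDN4 in LE is above all GE libraries on days 14 and 16, DSG2 in LE dips on day 14, CLDN10 in GE jumps on day 20 and CDH17 stays apart in LE.

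In GE, the glands, the catenins CTNND1 and CTNNA1 and the plakophilin PKP4 rose from day 12 to day 14, the connexin GJB5 fell, and CLDN10 rose on day 20. From day 10 to day 12, 0 of 25 members were called by limma or by edgeR on recovered reads, where 0.527% of all genes were called by limma, and 3 members and 830 genes had an unadjusted p under 0.05. From day 12 to day 14, 4 of 25 were called, 3 higher and 1 lower, beside 16% of all genes (6.29% higher and 9.68% lower). GJB5 had 2.31, 2.26, 5.56 and 3.08 RPKM on day 12 and 0.53, 0.27, 0.26 and 0.00 RPKM on day 14. The groups did not overlap, and the change was -1.72 (SE 0.40, adjusted p = 0.00592).

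PKP4, a plakophilin relative found at adherens junctions and desmosomes, had 11.63, 8.00, 5.93 and 8.50 RPKM on day 12, 21.71, 39.61, 30.22 and 11.70 RPKM on day 14, and 7.07, 10.21, 5.25 and 12.97 RPKM on day 16. The day 14 libraries were all above those of day 12, and 1 day 16 library lay within their range. It rose by 1.40 (adjusted p = 0.0167) and fell by 1.38 (adjusted p = 0.0171). CTNND1 did the same, from 14.25, 13.40, 14.08 and 7.98 RPKM to 41.69, 16.22, 30.81 and 30.92 RPKM and back to 14.28, 9.83, 12.33 and 12.59 RPKM, a rise of 1.16 (adjusted p = 0.0273) and a fall of 1.16 (adjusted p = 0.0266). CTNNA1 rose by 0.97 (adjusted p = 0.0331). The step from day 14 to 16 had 3 of 25 members called, 1 higher and 2 lower, beside 17.5% of all genes (12.6% higher and 4.89% lower). The member that rose was CLDN1 (1.63, adjusted p = 0.0383), with 0.13, 1.38, 0.00 and 0.00 RPKM on day 14 and 7.09, 1.76, 3.41 and 1.49 RPKM on day 16. Leave-one-out fits ended the call of CLDN1 in 5 of 8, of CTNND1 in 3 and 4, of CTNNA1 in 3 and of PKP4 in 1 of each step, and that of GJB5 in 0. Upper quartile scaling split the first step into 1 higher and 5 lower, and TMM scaling split the second into 0 higher and 5 lower. Of all called genes, 505 of 2295 and 935 of 1681 were then higher, against 632 of 1605 and 1268 of 1759 without these scalings. Endothelial markers in GE summed to 8.64 to 15.94 RPKM on day 12, 31.60 to 128.85 RPKM on day 14 and 12.85 to 28.73 RPKM on day 16, with 0 to 3 of 9 at 0 in a day 14 library, and stromal markers to 142.19 to 211.24, 169.20 to 416.81 and 106.95 to 153.61 RPKM. Their part in the PKP4 and catenin changes was not tested.

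From day 16 to day 20, 1 of 25 GE members was called, where 0.308% of all genes were. CLDN10, a claudin that forms ion-selective pores, had 4.01, 2.00, 6.81 and 7.83 RPKM on day 16 and 104.95, 48.23, 156.38 and 30.65 RPKM on day 20. The lowest day 20 library was above the highest day 16 library, and the rise of 3.65 (SE 0.46, adjusted p = 0.000429) was called in all 8 leave-one-out fits. CLDN10 also had 35.63, 31.59, 25.37 and 51.83 RPKM on day 10, so its levels of days 12, 14 and 16 lay below both ends of the series. The gland marker genes (6 in the file) summed to 5381.12 to 11260.76 RPKM in GE on day 10, 453.64 to 3875.04 RPKM on day 16 and 4017.51 to 13029.06 RPKM on day 20, and the part of gland content in the CLDN10 values was not tested.

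LE and GE were then compared on each day. CDH17 was higher in LE on all 5 days, CLDN10 and DSC2 were higher in GE on all 5, CLDN8 was higher in GE on days 10 to 16, and CLDN4 and CLDN3 were higher in LE from day 14 on. Of the 30 members tested, 13 were called on day 10 (14.3% of all genes tested), 10 on day 12 (12.2%), 14 on day 14 (35.8%), 12 on day 16 (22.5%) and 8 on day 20 (10.7%), which is 43.3, 33.3, 46.7, 40 and 26.7% of the members. Over the days 23 members were called at least once, 10 of them higher in LE and 14 higher in GE, with CTNNA1 in both counts. The same count was not made over all genes, so only the shares by day can be compared. Those shares carry a limit of the filter, which ran over both tissues together and so let in genes high in a single tissue. CDH2 and CLDN10 passed it within GE but not within LE. CDH11, CDH16 and GJB2 passed it within LE but not within GE. The filter was the same for all genes, and its part in the shares was not tested. By direction, 2, 2, 5, 6 and 6 members were higher in LE on days 10, 12, 14, 16 and 20, beside 2.65, 3.03, 8.75, 6.76 and 4.29% of all genes, and 11, 8, 9, 6 and 2 were lower, beside 11.6, 9.17, 27.1, 15.7 and 6.44%. The values below are LE minus GE.

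**Figure D2:**
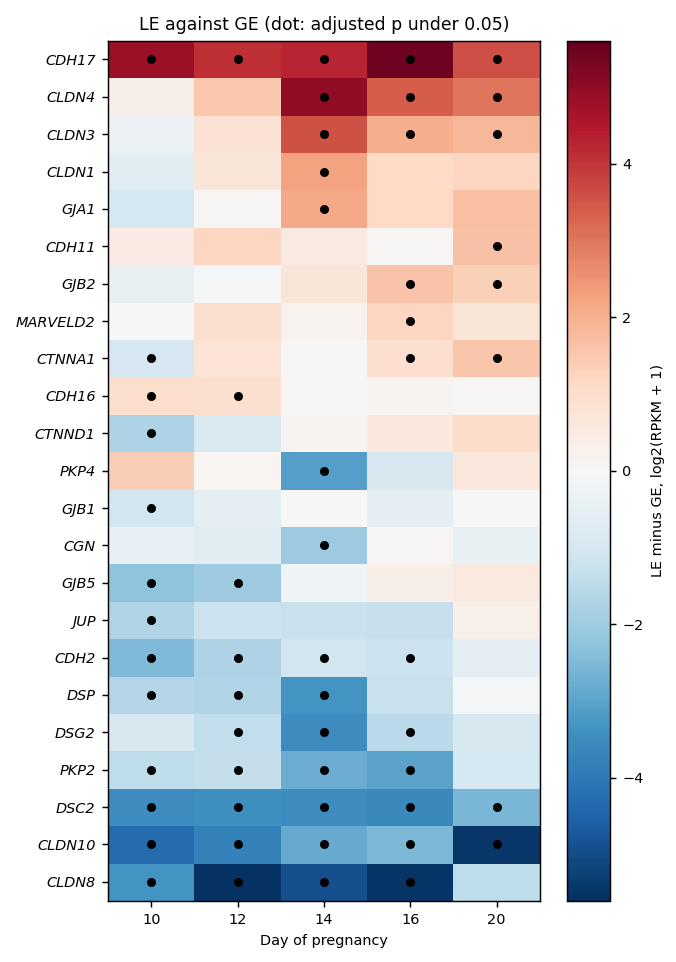
Difference between LE and GE (LE minus GE, log2(RPKM + 1) scale) of the 23 junction genes called on at least 1 day, by day of pregnancy. A dot marks a call at an adjusted p under 0.05; CDH17 is higher in LE and CLDN10 and DSC2 are higher in GE on all 5 days.

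CDH17 had 33.83, 56.87, 40.98 and 17.97 RPKM in LE on day 10 against 0.05, 0.14, 1.26 and 0.04 RPKM in GE. On day 16 it had 36.29, 60.34, 38.43 and 51.98 RPKM in LE against 0.05, 0.03, 0.02 and 0.18 RPKM in GE. No LE library overlapped a GE library on any day, the lowest LE value being 5.02 RPKM on day 20 and the highest GE value 2.30 RPKM on day 12. The differences were 4.78, 4.08, 4.24, 5.45 and 3.62 from day 10 to day 20, with adjusted p from 1.44e-10 to 8.21e-07.

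CLDN4 in GE had 2.53, 42.21, 1.47 and 3.23 RPKM on day 14, below all 4 LE libraries given above. It was higher in LE by 4.98 on day 14 (SE 0.67, adjusted p = 2.84e-07), by 3.41 on day 16 (adjusted p = 0.000219) and by 3.00 on day 20 (adjusted p = 0.00215), and was not called on day 10 (0.32, adjusted p = 0.81) or day 12 (1.50, adjusted p = 0.141). CLDN3 was higher in LE by 3.57 on day 14 (adjusted p = 8.57e-06), 2.03 on day 16 (adjusted p = 0.0103) and 1.86 on day 20 (adjusted p = 0.0335). Without LE libraries 21 and 23 the day 20 difference was 2.14 for CLDN4 (adjusted p = 0.134) and 0.97 for CLDN3 (adjusted p = 0.488). That fit holds fewer LE libraries, and the part of this in the lost calls was not tested. Leaving out 1 library at a time ended the day 20 call of CLDN4 in 0 of 8 fits and of CLDN3 in 5. Libraries 21 and 23 were also high in CDH1 (E-cadherin), at 153.31 and 217.68 RPKM against 60.76 and 22.02 RPKM in the other day 20 LE libraries. CLDN1 had 45.34 and 24.97 RPKM there against 0.68 and 0.25 RPKM.

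The gland side was led by CLDN10, CLDN8 and DSC2. CLDN10 in LE had 0.29, 0.18, 0.97 and 2.48 RPKM on day 10, was listed at 0 in all 4 libraries on day 16, and had 0.00, 0.22, 0.00 and 5.03 RPKM on day 20. Its differences were -4.32, -3.81 and -2.83 on days 10, 12 and 14 and -5.44 on day 20, and the day 16 call had an adjusted p of 0.000204. CLDN8, a claudin of ducts and distal tubules in other organs, had 0.00, 0.09, 0.18 and 0.18 RPKM in LE against 45.65, 45.52, 71.83 and 41.27 RPKM in GE on day 12. Its differences were -3.34, -5.52, -4.94 and -5.49 on days 10 to 16. With edgeR on recovered reads the day 10 call was lost (adjusted p = 0.0975). On day 20 CLDN8 had 6.27, 0.11, 5.84 and 5.97 RPKM in LE and 26.36, 9.12, 3.82 and 13.95 RPKM in GE, where the groups overlapped and the difference of -1.42 had an adjusted p of 0.112.

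Of the 6 desmosome genes tested, 4, 4, 5, 3 and 1 were called higher in GE on days 10, 12, 14, 16 and 20, where 11.6, 9.17, 27.1, 15.7 and 6.44% of all genes were, and 0 were called higher in LE on any day. Under TMM scaling DSP, JUP and PKP2 lost their calls on day 10 and DSG2, DSP and PKP2 on day 12, which left DSC2 on both days. Under edgeR on recovered reads PKP2 (adjusted p = 0.093) and PKP4 (adjusted p = 0.281) lost theirs on day 14 and DSG2 (adjusted p = 0.178) on day 16. DSC2, a desmosomal cadherin, had 1.59, 2.13, 1.51 and 0.28 RPKM in LE and 27.82, 24.02, 16.84 and 29.48 RPKM in GE on day 10, and its differences were -3.47, -3.46, -3.48, -3.61 and -2.55 over the days. In LE it stayed at or below 2.75 RPKM in every library. PKP2 differed by -1.44, -1.35, -2.80 and -3.01 on days 10 to 16, and DSP by -1.62, -1.68 and -3.34 on days 10 to 14. On day 14 DSP had 7.14, 1.38, 4.11 and 0.02 RPKM in LE against 23.55, 62.08, 35.10 and 17.71 RPKM in GE, with no overlap. DSG2 differed by -1.36, -3.51 and -1.51 on days 12, 14 and 16, PKP4 by -3.08 on day 14 and JUP by -1.68 on day 10.

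Some classical cadherins and connexins also differed. CDH1 was near equal in both epithelia from day 10 to 16 (differences of -0.26 to -0.02) and was called on no day. CDH2 (N-cadherin) stayed at or below 0.27 RPKM in every LE library and had 4.32, 2.41, 8.95 and 4.49 RPKM in GE on day 10, with differences of -2.45, -1.75, -1.05 and -1.20 on days 10 to 16. GJB5 was higher in GE by 2.27 on day 10 (LE minus GE -2.27, adjusted p = 9.66e-05), and on day 12, when it was listed at 0 in all 4 LE libraries, its adjusted p was 0.000589. With edgeR on recovered reads the day 10 call of GJB5 was lost (adjusted p = 0.207). The connexin GJB1 was listed at 0 in all 4 LE libraries of day 10 and was called higher in GE (adjusted p = 0.0207). It passed the filter on low values only when LE and GE were fitted together. Its entry rested in part on day 10 GE libraries 02 and 08, without which it was not tested. The call held in the 6 leave-one-out fits that tested it. GJB2 was higher in LE by 1.62 on day 16 (adjusted p = 0.00702), with 0.93, 1.29, 2.43 and 8.12 RPKM against 0.09, 0.00, 0.34 and 0.07 RPKM. GJA1 (connexin 43) was higher in LE by 2.12 on day 14 (adjusted p = 0.0286), but library B06 alone had 68.75 RPKM against 11.19, 0.26 and 8.46 RPKM in the others, and 4 of 8 leave-one-out fits lost the call. In that library VIM stood at 495.36 RPKM and GRP at 358.63 RPKM. The gland list as a whole (6 genes in the file) summed to 865.92 RPKM in B06. It summed to 275.66, 1302.88 and 932.69 RPKM in B02, B04 and B08. Stromal markers (10 in the file, VIM among them) summed to 648.83 RPKM in B06, against 360.38, 347.65 and 293.53 RPKM in these libraries. Mesoderm and embryo markers (8 in the file, 7 of them at 0 in B06) summed to 45.76 RPKM in B06, against 4.45, 0.90 and 0.43 RPKM. Trophectoderm markers (7 in the file, 5 of them at 0 in B06) summed to 37.67 RPKM, against 5.50, 2.92 and 0.06 RPKM. Their part in the GJA1 value was not tested.

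Other members were called on fewer days. CTNND1 was lower in LE on day 10 (-1.74), and CTNNA1 was lower in LE on day 10 (-0.96) and higher on days 16 (0.92) and 20 (1.56). TMM scaling, upper quartile scaling and edgeR on recovered reads each ended the day 10 calls of CTNND1 and CTNNA1. CGN was lower in LE on day 14 (-2.03). CLDN1 was higher in LE on day 14 (2.24), MARVELD2 on day 16 (adjusted p = 0.00807) and CDH11, a cadherin of mesenchymal cells, on day 20 (1.66); GJB2 was higher in LE on day 20 as well (1.35), and CDH16 on days 10 (0.99) and 12 (0.92). Leaving out 1 library lost the call in 5 or more of 8 fits for CTNNA1 on days 10 and 16, PKP2 on days 10 and 12, CLDN1 on day 14, and GJB2, CDH11 and CLDN3 on day 20. Without libraries 21 and 23, the day 20 differences of CTNNA1 (1.25, adjusted p = 0.0678), GJB2 (0.52, adjusted p = 0.656) and CDH11 (1.78, adjusted p = 0.137) were not called either, and the members called on day 20 went from 8 to 3.

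Across all genes tested, LE minus GE had a median of -0.45, -0.38, -0.46, -0.30 and -0.16 from day 10 to day 20, and the members had -0.65, -0.13, -0.12, 0.13 and 0.50. TMM scaling moved the medians of all genes on days 10, 12 and 14 to -0.02, -0.08 and -0.20. With it the called members split 3 higher and 6 lower in LE on day 10 and 5 and 5 on day 12. Of all called genes, 553 of 1084 and 601 of 1127 were then higher in LE, against 295 of 1590 and 337 of 1358 without it. With edgeR on recovered reads, which tested 37 members, the called members split 10 higher and 7 lower on day 14 and 8 and 6 on day 20. Of all genes called by edgeR on day 14, 2111 of 4741 were higher in LE, against 974 of 3985 by limma. No called member turned its direction under TMM or upper quartile scaling.

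Whether the 2 epithelia changed differently was tested as the LE change minus the GE change. From day 10 to day 12, 0 of 30 members were called by limma or by edgeR on recovered reads, where 0.35% of all genes were called by limma. In limma 2 members and 764 of 11131 genes had an unadjusted p under 0.05. In the next step, from day 12 to 14, 3 were called beside 2.61% of all genes: CLDN4 rose more in LE (3.48, adjusted p = 0.0357), and DSG2 (-2.14, adjusted p = 0.0181) and PKP4 (-3.21, adjusted p = 0.0202) went lower in LE relative to GE. PKP4 in LE had 16.12, 12.49, 5.80 and 5.77 RPKM on day 12 and 0.04, 0.13, 21.06 and 1.75 RPKM on day 14, while in GE all day 14 libraries were above day 12. From day 14 to day 16, 2 were called beside 4.16% of all genes, DSG2 (1.99, adjusted p = 0.0228) and CGN (2.10, adjusted p = 0.0338). From day 16 to day 20, 2 were called beside 0.467%, CLDN8 (4.07, adjusted p = 0.00999) and CLDN10 (-2.93, adjusted p = 0.0357). The CLDN8 call was not made without LE libraries 21 and 23 (3.43, adjusted p = 0.13). Of 16 leave-one-out fits, the call was lost in 9 for CLDN4, 8 for CGN, 12 for CLDN10, 1 in each step for DSG2 and 0 for PKP4 and CLDN8. With edgeR on recovered reads PKP4 (adjusted p = 0.312) and CLDN4 (adjusted p = 0.153) were not called, and CLDN10 turned its direction without a call (adjusted p = 0.795).

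The scaffolds and partners that the tables name differently moved in part with these genes. ZO2 had 9.98, 5.07, 3.73 and 6.53 RPKM in LE on day 12, 1.32, 0.96, 0.10 and 0.83 RPKM on day 14 and 6.60, 3.51, 3.98 and 6.11 RPKM on day 16. It fell by 2.00 (adjusted p = 0.016) and rose by 1.76 (adjusted p = 0.0305), and in GE it rose by 1.01 from day 12 to 14 (adjusted p = 0.0298). ZO1 was higher in GE on days 10, 12 and 14 (LE minus GE -2.03, -1.51 and -1.92). CTNNB was higher in GE on day 10 (-2.01).

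Of the other junction genes, lists made with earlier results of these data known, few were called between days in the epithelia. In LE from day 12 to 14, 1 of 14 adherens and polarity genes rose (PVRL1, nectin 1, by 2.40) and 1 of 13 further tight junction genes fell (MARVELD3, by 1.65), where 3.39% of all genes rose and 9.76% fell. From day 14 to 16, 3 of 14 and 2 of 13 rose, among them PRKCI (atypical protein kinase C, 2.56) and MARVELD3 (2.79), where 12.4% of all genes were called. On day 14, 6 of 15 further tight junction genes were higher in GE and 1 in LE, with CGNL1 at -4.05, and 4 of 6 desmosome and keratin partners were higher in GE, with PERP at -3.29, where 27.1% of all genes were higher in GE and 8.75% in LE. PVRL1 was higher in LE on all 5 days, by 1.99 to 4.72. Among the epithelial identity factors ESRP1, an epithelial splicing regulator, fell in LE from day 12 to 14 (-2.54, adjusted p = 0.00129) and rose from day 14 to 16 (2.38, adjusted p = 0.00209), as DSG2 did.

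The conceptus was compared between successive days, over which it elongates and begins to attach. Values are in CPM, the gene reads of a library scaled to a common total, because the day 12 RPKM of the deposited table rests on exon reads and the later RPKM on all reads of a gene. Steps were tested with edgeR (quasi-likelihood, TMM scaling), adjusted over all genes. From day 12 to day 14 the claudins CLDN6, CLDN7, CLDN4, CLDN3 and CLDN1 and the plakophilin PKP3 rose, while a set of desmosomal cadherins (DSC1, DSG3, DSG4, DSG1 and DSC3) and 11 cadherin and catenin genes fell. From day 14 to day 16, 4 of 7 connexins rose, GJB5 by the widest margin, and 1 fell, while 5 of 13 desmosome genes fell and 1 rose. From day 16 to day 20 the connexins GJA5 and GJA1 and the mesenchymal cadherin CDH11 rose.

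From day 12 to day 14, 36 of 50 members were called, 15 higher and 21 lower, beside 76.1% of all genes tested (38.1% higher and 38% lower), so the share of members called (72%) was near that of all genes. By junction, 7 of 12 tight junction genes rose and 2 fell, 3 of 18 adherens genes rose and 11 fell, 4 of 13 desmosome genes rose and 8 fell, and 1 of 7 gap junction genes rose. CLDN6 had 16.77, 13.59, 23.49, 15.80 and 7.29 CPM on day 12 and 180.52, 170.59, 185.29 and 182.04 CPM on day 14. The groups lay far apart, with a change of 3.54 (SE 0.25, adjusted p = 1.19e-09). CLDN7 had 4.91 to 7.27 CPM on day 12 and 48.30, 72.51, 54.31 and 51.47 CPM on day 14, and rose by 3.15 (SE 0.21, adjusted p = 9.86e-10). PKP3, a plakophilin of epithelial desmosomes, went from 0.32, 0.61, 2.35, 1.76 and 1.44 CPM to 16.51, 16.22, 17.18 and 20.50 CPM, a change of 3.73 (SE 0.36, adjusted p = 7.7e-08).

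**Figure D3:**
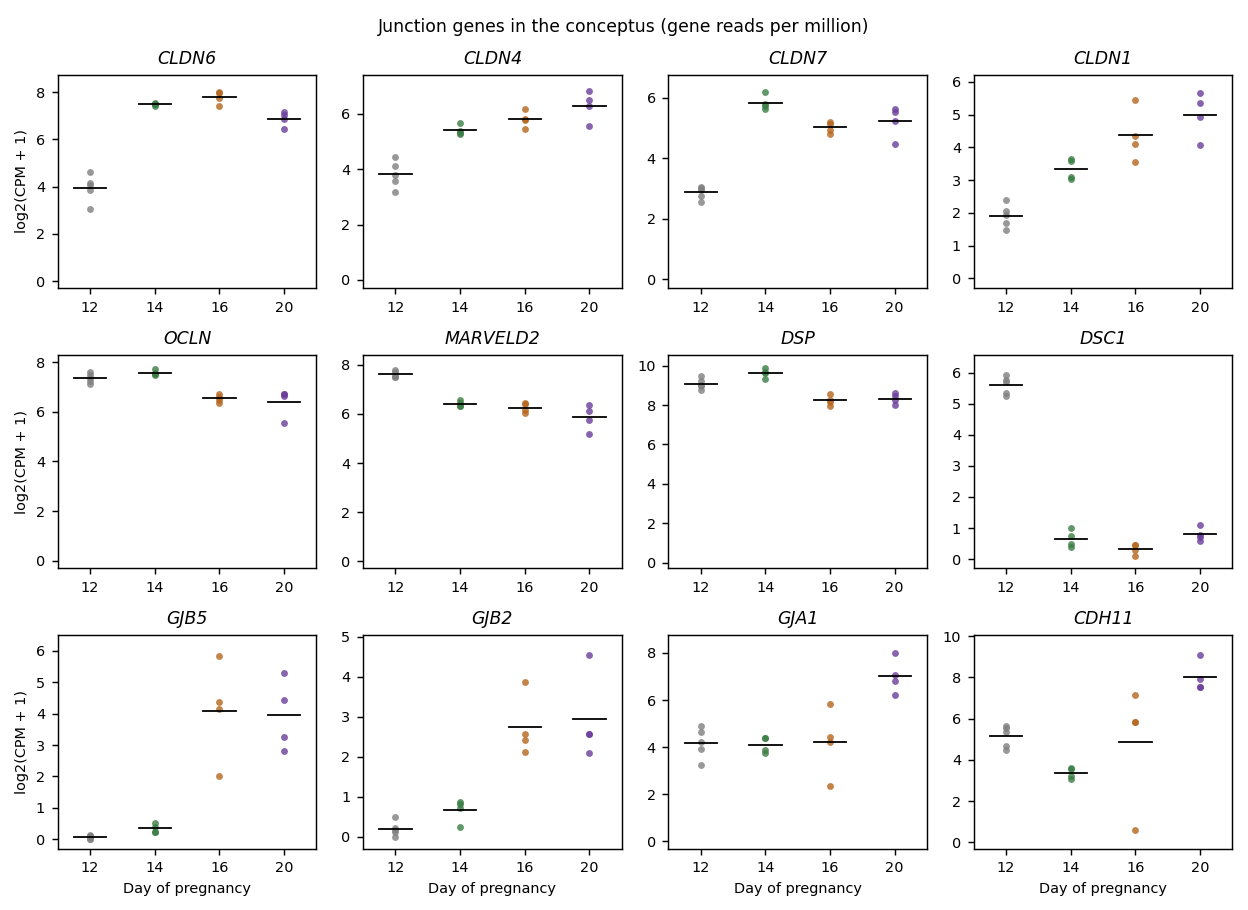
Levels of 12 junction genes in the conceptus on days 12, 14, 16 and 20, as log2(CPM + 1). Points are libraries (5 on day 12, 4 on the later days) and bars mark group means; CLDN6 and CLDN7 step up and DSC1 steps down after day 12, and GJB5 steps up after day 14.

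Smaller rises from day 12 to 14 were those of CLDN3 (2.09), CGN (2.04), GJB1 (1.75), CLDN1 (1.71), CDH12 (1.64), CLDN4 (1.59), CTNND1 (1.44), F11R (0.90), CDH1 (0.74), DSG2 (0.72), DSC2 (0.61) and DSP (0.53). CGN had 19.24 to 30.76 CPM on day 12 and 115.92, 98.98, 84.70 and 126.42 CPM on day 14. CDH1 had 216.62, 244.06, 222.13, 215.68 and 306.07 CPM and then 356.78, 389.31, 431.87 and 431.81 CPM, with no overlap between the days. F11R is the junctional adhesion molecule A, and CDH12 is a cadherin best known from brain.

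Among the falls were desmosomal cadherins of keratinising epithelia. DSC1 had 40.11, 51.53, 53.07, 37.21 and 59.47 CPM on day 12 and 0.31, 1.00, 0.69 and 0.41 CPM on day 14, a change of -6.29 (SE 0.34, adjusted p = 8.08e-11). DSG3 had 70.68, 25.90, 53.74, 67.17 and 33.29 CPM and then 1.14, 2.72, 1.81 and 1.83 CPM, a change of -4.73 (SE 0.46, adjusted p = 7.27e-08). Every day 12 library was above every day 14 library for both. CLDN8 had 1.68 to 2.85 CPM on day 12 and 0 reads in all 4 day 14 libraries, at least 32.9-fold lower when day 14 is set at a floor of 3 reads over the group. Other cadherins fell as well. CDH7 had 6.42, 2.35, 6.88, 3.85 and 14.23 CPM on day 12 and 0.10, 0.09, 0.43 and 0.00 CPM on day 14 (-5.34, adjusted p = 4.76e-05), and CDH18 (-4.41), CDH13 (-4.19), CDH20 (-2.71) and CDH4 (-2.60) fell too, beside PKP1 with 2 reads on day 14. Few of the day 12 reads of these lay in exons: 2.85% for CDH18, 1.9% for CDH13, 3.97% for CDH20 and 0 of 79 reads for CDH4. The share was 30.5% for CDH7 and 16.2% for PKP1.

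In the RefSeq annotation the genes DSG2, DSC1, DSG3, DSG4, DSG1, DSC2, DSC3 and CDH2 follow each other as protein-coding neighbours. Of this run DSG2 and DSC2 rose from day 12 to 14, at 232.02, 159.77, 287.45, 243.03 and 209.92 CPM and then 310.56, 424.20, 411.24 and 348.63 CPM for DSG2, while the other members of the run fell. OCLN and MARVELD2 are neighbours as well. OCLN had 138.31 to 192.46 CPM on day 12 and 178.02 to 209.81 CPM on day 14 (0.20, adjusted p = 0.336), while MARVELD2 fell from 181.56, 223.94, 189.08, 178.80 and 208.40 CPM to 79.04, 85.48, 78.48 and 93.47 CPM (-1.22, adjusted p = 1.24e-05). PKP2 (-0.57), PKP4 (-1.15), CDH2 (-1.57), CDH11 (-1.95) and CTNNA1 (-0.31) fell as well. With limma on log2(RPKM + 1), where day 12 RPKM rests on exon reads and day 14 RPKM on all gene reads, the members split 20 higher and 6 lower, the median of all genes was 0.94, and CTNNA1 rose (0.80, adjusted p = 3.24e-06), while PKP2 (0.43), PKP4 (0.29) and CDH11 (0.13) were above 0 without a call.

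How the day 12 reads lay on the genes differed widely. Reads within exons made up 85% of the gene reads of DSC1, 72% of DSG3, 94.5% of DSP, 99% of PKP3 and 45.5% of CLDN6, but 0.0958% of CDH12, 1.56% of DSG1, 2.75% of DSG4 and 22.6% of CDH11. Of the 43 members with 50 or more day 12 reads, 9 had under 10% in exons. Over all genes the median change from day 12 to 14 was -1.44 where under 1% of day 12 reads lay in exons and -1.47 where 1 to 10% did. It was -0.45 where 10 to 50% did and 0.66 where 80% or more did. The part of this in the changes was not tested. Of the 21 members that fell, 12 were below 10 CPM on both days, and of the 15 that rose 3 were. CDH11 and CTNNA1 lost their calls in 4 of 9 leave-one-out fits.

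**Figure D4:**
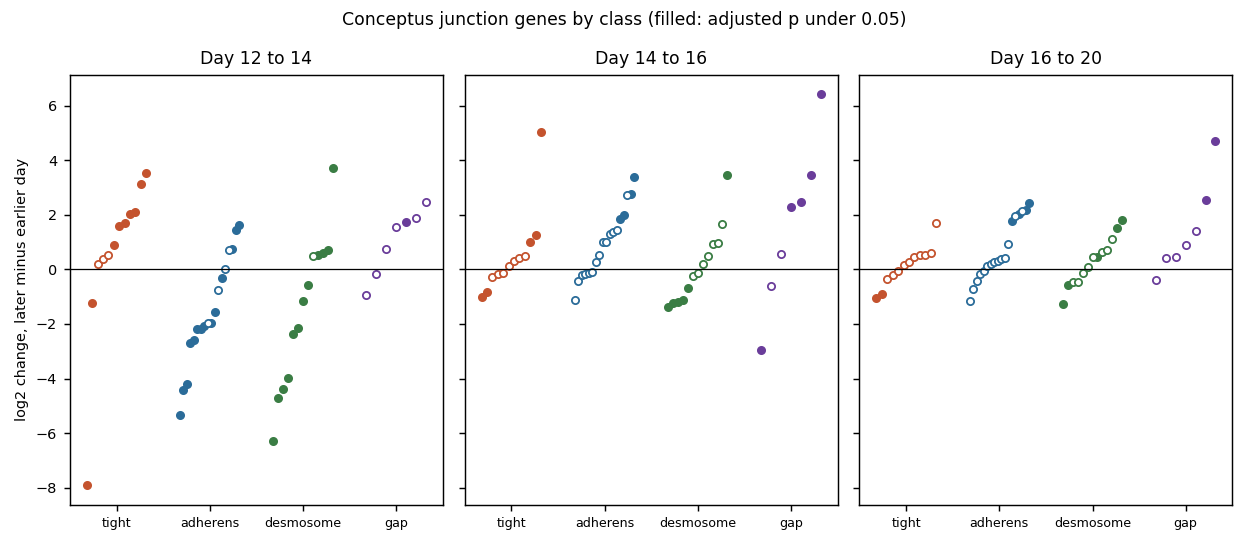
Change of each tested junction gene in the conceptus between successive days (log2, later minus earlier, edgeR), by junction class. Filled points were called at an adjusted p under 0.05; most tight junction points from day 12 to 14 lie above 0 and most desmosome points below, and the fitted values of CLDN8 rest on a day with 0 reads.

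From day 14 to day 16, 20 of 50 members were called, 12 higher and 8 lower, beside 49.9% of all genes tested (25.6% higher and 24.3% lower). Gap junction genes had 4 of 7 higher and 1 lower, and desmosome genes 1 of 13 higher and 5 lower. GJB5, a connexin of trophoblast in the mouse, had 0.31, 0.18, 0.17 and 0.41 CPM on day 14 and 3.07, 19.79, 56.89 and 16.73 CPM on day 16. All day 16 libraries were above all day 14 libraries, and the change was 6.43 (SE 0.90, adjusted p = 4.13e-05). GJB5 remained at 8.59, 6.07, 38.77 and 20.89 CPM on day 20, and on day 12 it had 0.08 CPM or less in every library.

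GJB2 had 0.83, 0.63, 0.17 and 0.75 CPM on day 14 and 3.37, 13.51, 4.92 and 4.36 CPM on day 16, a change of 3.44 (SE 0.73, adjusted p = 0.00121). GJB1 had 1.35, 1.45, 0.86 and 0.66 CPM and then 5.32, 6.69, 2.89 and 8.94 CPM, a change of 2.46 (adjusted p = 0.000157). Neither gene had overlapping groups. GJB6, the RefSeq neighbour of GJB2, went the other way, from 7.48, 7.89, 8.98 and 10.96 CPM to 1.00, 2.28, 0.80 and 0.50 CPM (-2.94, adjusted p = 0.0148).

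The desmosome genes that fell from day 14 to 16 were DSP (-1.39, adjusted p = 2.44e-05), DSC1 (-1.23), DSC2 (-1.18), DSG2 (-1.11) and PKP2 (-0.67). DSP had 648.13, 789.04, 936.36 and 831.24 CPM on day 14 and 284.22, 310.39, 378.59 and 248.82 CPM on day 16. DSC2 had 545.82, 530.98, 638.83 and 563.62 CPM and then 257.52, 241.10, 260.91 and 248.82 CPM. The day 16 libraries of both genes were below all day 14 libraries. OCLN fell from 179.90, 178.02, 209.81 and 187.02 CPM to 87.61, 104.93, 96.84 and 80.94 CPM (-1.03, adjusted p = 0.000543) and CLDN7 by 0.84.

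Rises outside the connexins were those of CDH16 (3.40), CDH11 (2.76), CDH3 (P-cadherin, 1.98), CDH13 (1.84), CLDN1 (1.26, adjusted p = 0.0157) and CLDN23 (1.00), with GJC1 (2.29) as the other connexin. CLDN8, at 0 reads on day 14, was at least 4.49-fold higher on day 16 by the same floor, and DSC3 rested on 3 reads on day 14. Of the 12 rises only 3 reached 10 CPM on either day. CLDN1 was not called without day 16 library 4 (0.73, adjusted p = 0.0901), and GJC1 and DSC1 lost their calls in 6 and 4 of 8 leave-one-out fits.

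Day 16 library 4 stood apart from the other day 16 conceptuses. Stromal markers (10 in the file, none at 0 in any day 16 or day 20 library) summed to 12.34 RPKM there against 395.38, 520.97 and 1643.36 RPKM in libraries 1, 2 and 5, and to 25.67 to 78.43 RPKM on day 14 and 4370.00 to 14610.70 RPKM on day 20. VIM was 2.53 CPM there against 98.48 to 257.82 CPM. This library had the highest GJB5 (56.89 CPM) and CLDN1 (42.85 CPM) and the lowest CDH11 (0.51 CPM against 56.01, 56.40 and 141.14 CPM), GJA1 (4.05 CPM) and GJC1 (0.00 CPM) of its day. Without it GJB5 still rose by 5.56 (adjusted p = 5.79e-05) and CDH11 by 3.17 (adjusted p = 4.95e-05).

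**Figure D5:**
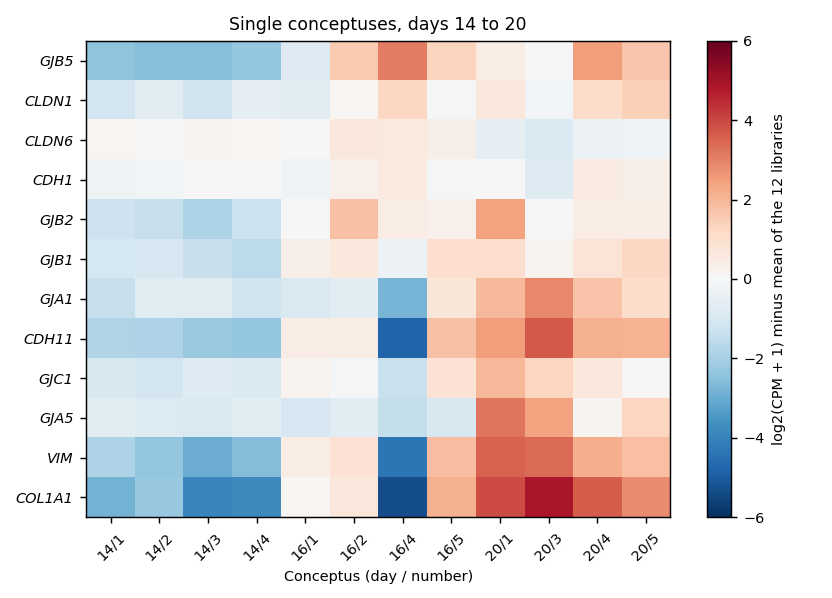
Level of 10 junction genes and of VIM and COL1A1 in each of the 12 conceptus libraries of days 14, 16 and 20, as log2(CPM + 1) minus the gene's mean over these libraries. Day 16 library 4 is high for GJB5 and CLDN1 and low for CDH11, GJA1, GJC1, VIM and COL1A1.

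From day 16 to day 20, 13 of 50 members were called, 9 higher and 4 lower, beside 36.9% of all genes tested (18.1% higher and 18.9% lower). GJA1 had 17.61, 20.68, 4.05 and 56.41 CPM on day 16 and 133.89, 253.36, 110.98 and 73.04 CPM on day 20, with no overlap and a change of 2.53 (SE 0.57, adjusted p = 0.00316). GJA5 (connexin 40, known from arteries and the heart) had 0.41, 0.83, 0.07 and 0.50 CPM and then 25.64, 14.23, 2.23 and 6.09 CPM, a change of 4.70 (SE 0.69, adjusted p = 0.000141). CDH11 reached 243.88, 538.86, 184.92 and 182.05 CPM on day 20 and rose by 2.18 (adjusted p = 0.0338), a call lost in 3 of 8 leave-one-out fits. All 4 day 20 libraries exceeded all day 16 libraries for these genes.

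Endothelial markers (9 in the file) summed to 6.64 to 41.72 RPKM on day 16 and 49.27 to 174.50 RPKM on day 20, with CLEC14A and EMCN at 0 in day 16 library 4 and none at 0 on day 20. The stromal sums are given above, and trophectoderm markers (7 in the file) summed to 2334.60 to 3292.39, 1592.29 to 2303.98 and 793.08 to 1311.62 RPKM on days 14, 16 and 20. That list shares keratins with the epithelial list, KRT8 among them, so the sum is not particular to trophectoderm. The epithelial sums were close, at 2401.00 to 3435.94, 1673.82 to 2440.64 and 813.78 to 1388.77 RPKM. The part of these marker sums in the connexin and cadherin changes was not tested. Without day 16 library 4, GJA1 rose by 2.17 (adjusted p = 0.00411) and CDH11 by 1.76 (adjusted p = 0.00642).

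The other rises from day 16 to 20 were those of CDH8 (2.44), CDH16 (2.04), DSG1 (1.83), CDH26 (1.79), DSC1 (1.52) and DSG2 (0.46). The falls were those of PKP3 (-1.26), CLDN23 (-1.05), CLDN6 (-0.90, adjusted p = 0.00854) and PKP4 (-0.59). CLDN6 had 171.09, 255.92, 249.18 and 216.21 CPM on day 16 and 116.33, 86.72, 129.64 and 143.93 CPM on day 20, with no overlap. DSG2 and CDH26 lost their calls in 6 of 8 leave-one-out fits each. CDH1 was called in neither of the later steps (0.28, adjusted p = 0.328, and -0.05, adjusted p = 0.879) and had 260.72 to 626.10 CPM on day 20.

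Over the conceptus steps 46 of the 50 tested members were called at least once and 4 in all 3. The same count was not made over all genes. In the single steps 72, 40 and 26% of the members were called, below the 76.1, 49.9 and 36.9% of all genes. The member medians were -0.09, 0.45 and 0.42 in the order of the steps, beside -0.01, 0.06 and -0.02 for all genes tested, and setting CLDN8 at its bound left the first and the second as they were. CTNNB rose from day 12 to 14 (1.41), ZO3 rose (0.94) and ZO1 fell (-0.95). Of the further lists, 7 of 8 desmosome and keratin partners rose in that step and 1 fell (median 2.32, with envoplakin, EVPL, at 3.26), and 11 of 17 epithelial identity factors rose and 3 fell (OVOL1 at 4.95), where 38.1% of all genes rose and 38% fell. Further tight junction genes had 4 of 18 higher and 9 lower (JAM2 at -4.24). Of the 6 mesenchymal genes 4 rose from day 14 to 16 (median 2.59, VIM at 3.23) and 2 from day 16 to 20 (ZEB1 at 3.23), where 25.6% and 18.1% of all genes rose.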

How the data were processed

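The authors deposited RPKM values per gene for LE, GE and conceptus libraries, with whole-number gene read counts beside them for the conceptus. Reads were mapped to Oar v3.1, per the submitters' processing notes; no aligner or counter is named in them. The deposited tables also hold signed fold scores and FDR p-values from the authors' EDGE test, per the file headers, which were not used for calls. Of 25197 features, 23 without a gene ID were left out. Low RPKM values were whole multiples of 1 read in 100% of the values examined (tolerance 0.1 reads), which gave reads per library for an edgeR alternative; it called 1487 genes in LE and 2026 in GE from day 12 to 14.

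LE and GE were tested with limma 3.58.1 (trend) on log2(RPKM + 1), keeping genes at 1 RPKM or more in at least 4 libraries. Conceptus counts were tested with edgeR 4.0.16 (quasi-likelihood, TMM, filterByExpr), with DESeq2 1.42.0 as an alternative, in R 4.3.3. LE and GE were fitted on their own 20 libraries each, and together for LE against GE and differences of changes. Benjamini-Hochberg adjustment ran over all genes. Scripts were tested on simulated data. Every member could be named, with full values for the largest called changes; from other lists the top called gene was named. Members and lists were chosen with earlier results of these data known. Among the 57 libraries 0 pairs had identical values. Reads carry no molecular identifiers, so depth sets counting error only. Gene order came from RefSeq (ARS-UI_Ramb_v3.0), with protein-coding genes sorted by chromosome and start. The 74 members were matched to it by symbol. Alternatives were other scalings, pseudocounts, filters, tests, a replicate block and leaving out libraries.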

Additional observations from a re-analysis of the deposited data

Results flagged for a closer look

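Of 195 groups of libraries with a mean of 10 RPKM or CPM or more, 13 had a library far from the others of its group by Dixon's test, where chance gives about 1 in 20. In LE these were CDH17 on day 14 (library B08 at 6.68 RPKM), GJA1 on day 14 (B06 at 68.75 RPKM), CLDN12 on day 14 (B02 at 66.77 RPKM, with 0.14 RPKM or less in the other 3) and DSP on day 20 (library 23 at 21.43 RPKM). In GE they were JUP on day 10 (08 at 23.35 RPKM) and day 14 (B03 at 60.14 RPKM), CTNND1 on day 12 (16 at 7.98 RPKM), CLDN8 on day 12 (14 at 71.83 RPKM), CLDN4 on day 14 (B03 at 42.21 RPKM), PKP2 on day 20 (024 at 23.91 RPKM) and MARVELD2 on day 20 (018 at 9.27 RPKM). In the conceptus they were JUP on day 12 (library 3 at 329.84 CPM) and OCLN on day 20 (library 3 at 46.44 CPM).

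The test of the difference itself (limma, LE change minus GE change) gave 7 calls among the members, with DSG2 called more than once. Of all genes, 2.61, 4.16 and 0.467% were called in the steps from day 12 on. From day 12 to 14 these were CLDN4 (3.48), DSG2 (-2.14) and PKP4 (-3.21), from day 14 to 16 CGN (2.10) and DSG2 (1.99), and from day 16 to 20 CLDN10 (-2.93) and CLDN8 (4.07).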

How the results depend on the processing

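Most counts of called members stayed within 1.5 times of the reported one. The exceptions follow, with the reported count in brackets. These are counts and not shares, since the members tested and the calls over all genes moved as well. Without a filter 73 members were tested in LE, against 25. The edgeR alternative tested 28 in LE, 34 in GE and 37 for LE against GE. Calls over all genes from day 12 to 14 went from 1210 to 933 in LE without a filter. In GE they went from 1605 to 2026 under edgeR. Without a filter on low values LE had 3 [6] from day 12 to 14 and 1 [2] from day 14 to 16, the latter also 1 under TMM scaling and 4 with a pseudocount of 0.1. GE had 7 [4] from day 12 to 14 under edgeR on recovered reads, and from day 14 to 16 it had 7 [3] under edgeR, 5 under TMM (0 higher, 5 lower) and 5 under upper quartile scaling (2 and 3). LE against GE had 6 [13] on day 10 and 14 [8] on day 20 under edgeR, and 3 on day 20 without LE libraries 21 and 23. Differences of changes had 1 [3] from day 12 to 14 under edgeR, 1 [2] from day 14 to 16 with the replicate block, and 1 [2] from day 16 to 20 under each of a pseudocount of 0.1, no filter, edgeR, the block, and without libraries 21 and 23. Upper quartile scaling gave 6 GE calls from day 12 to 14 (1 higher, 5 lower), against 3 and 1, and the causes of these changes were not tested.

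Leaving out 1 library gave 0 to 0, 2 to 8, 1 to 4 and 0 to 1 calls in the LE steps, 0 to 0, 2 to 6, 0 to 5 and 1 to 1 in the GE steps, 8 to 12, 7 to 10, 13 to 15, 11 to 12 and 5 to 10 for LE against GE by day, 0 to 0, 1 to 5, 0 to 3 and 1 to 2 for the differences, and 33 to 39, 18 to 20 and 10 to 16 in the conceptus steps. Calls over all genes moved too, from 639 to 1571 in the LE step from day 12 to 14. Of the single-gene alternatives, 1800 kept direction and call, 277 lost the call and 5 reversed: CLDN10 in the difference from day 16 to 20 under edgeR (2.12, adjusted p = 0.795), and from day 12 to 14 in the conceptus under limma on log2(RPKM + 1) CDH11 (0.13, adjusted p = 0.882), CTNNA1 (0.80, adjusted p = 3.24e-06), PKP2 (0.43, adjusted p = 0.0517) and PKP4 (0.29, adjusted p = 0.0693), where day 12 RPKM counts exon reads and later RPKM all gene reads.

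Neighbouring LE and GE numbers had deviations correlated at -0.065 to 0.194 (median 0.054, 20 pairs), other same-day pairs at -0.184 to 0.12, and 15 of 20 LE libraries were most like their neighbour. As a block they gave 12, 9, 14, 11 and 8 calls for LE against GE and 0, 3, 1 and 1 for the differences. Conceptus numbers correlated at -0.273 to 0.343, and the replicate block gave 36, 15 and 13 calls. Depth limits the low genes: no fold is given for LE or GE groups listed at 0.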
